A study of Mus musculus with 5 samples.

Results

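The immediate early AP-1 and EGR genes are 10 genes given by name, namely Fos, Fosb, Jun, Junb, Jund, Egr1, Ier2, Atf3, Dusp1 and Zfp36. Each was read through the probe set of highest mean among those with a single gene symbol, and each had 1 such probe set. All 10 were found among 19938 genes with a probe set of their own, and all 10 passed the filter of a mean log2 intensity of at least 6 that left 6603 genes for testing. They were measured in leukocytes (CD45+ cells) sorted from the dispersed pancreas of 5 wild-type NOD females aged 10 weeks, with 1 array for each mouse. NOD is an inbred strain in which immune cells infiltrate the islets and diabetes arises without treatment. No treatment, transgene or control strain is part of the design, and the 5 mice form 1 group that differs in the T2 label, the transverse relaxation time of the pancreas by MRI. The T2 labels are 28.98 ms for mouse 5, 30.02 for mouse 4, 32.77 for mouse 3, 35.24 for mouse 2 and 35.3 for mouse 1. The study asked which transcripts vary with the MRI signal.

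Immediate early genes are transcribed within minutes of a stimulus without new protein synthesis, from promoters held ready by factors such as SRF, ETS proteins and CREB that MAP kinases activate. Fos, Fosb, Jun, Junb, Jund and Atf3 encode bZIP proteins, which bind DNA as pairs and form the AP-1 factors, while Egr1 encodes a zinc finger factor and Ier2 a small nuclear protein. Dusp1 and Zfp36 act as brakes: the DUSP1 phosphatase inactivates MAP kinases, and ZFP36 (tristetraprolin) binds AU-rich messenger RNAs and promotes their decay. Enzyme dispersal of a tissue and sorting are known to induce these genes in many cell types, leukocytes included. Every sample here was dispersed and sorted, so RNA made in the pancreas and RNA made during handling cannot be told apart.

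Promoters are printed for the 5 members that varied most between mice, Fos, Fosb, Jun, Atf3 and Dusp1, and for Zfp36, which holds a CArG box, the site of SRF. Each run is the last 150 bases before the annotated start of transcription, 5′ to 3′, from RefSeq's GRCm38.p6 assembly, which is of C57BL/6J and not of NOD. Capitals mark matches to the motifs searched.
Fos, chr12:85473740-85473889, plus strand: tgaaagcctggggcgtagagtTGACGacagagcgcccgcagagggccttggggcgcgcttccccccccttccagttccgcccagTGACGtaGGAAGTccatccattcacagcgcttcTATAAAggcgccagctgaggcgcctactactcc
Fosb, chr7:19310046-19310195, minus strand: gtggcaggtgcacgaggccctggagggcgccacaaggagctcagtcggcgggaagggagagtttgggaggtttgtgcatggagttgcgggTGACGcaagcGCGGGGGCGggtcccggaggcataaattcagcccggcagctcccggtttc
Jun, chr4:95052223-95052372, minus strand: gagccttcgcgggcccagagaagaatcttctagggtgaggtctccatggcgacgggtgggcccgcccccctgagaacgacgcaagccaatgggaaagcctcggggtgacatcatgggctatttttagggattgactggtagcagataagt
Atf3, chr1:191183334-191183483, minus strand: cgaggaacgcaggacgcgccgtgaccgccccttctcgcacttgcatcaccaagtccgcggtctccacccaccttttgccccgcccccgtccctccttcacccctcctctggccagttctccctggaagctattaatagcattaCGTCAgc
Dusp1, chr17:26508473-26508622, minus strand: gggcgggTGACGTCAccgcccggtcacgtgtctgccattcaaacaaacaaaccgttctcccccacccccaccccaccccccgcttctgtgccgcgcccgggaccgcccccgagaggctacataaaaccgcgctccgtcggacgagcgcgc
Zfp36, chr7:28379229-28379378, minus strand: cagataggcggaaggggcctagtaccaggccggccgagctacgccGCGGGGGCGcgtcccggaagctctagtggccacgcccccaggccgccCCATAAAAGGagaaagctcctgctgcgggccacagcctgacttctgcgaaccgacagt

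Motifs were searched for 8 of the 10 members, on both strands over the 250 bases before the start. No promoter of Ier2 was at hand, and that of Egr1 was left out of the search, so the counts do not cover these genes. TGACG, the short form of the cyclic AMP response element bound by CREB and ATF proteins, lay in 5 of 8 promoters, those of Fos, Fosb, Junb, Atf3 and Dusp1, against 17.8% of 32851 mouse promoters. In Fos it lay at positions -129 to -125 and -66 to -62, in Fosb at -60 to -56, in Junb at -106 to -102 and in Atf3 at -7 to -3. Dusp1 alone of the 8 held the full element TGACGTCA, at -143 to -136, which contains the short form on both strands and occurs in 1.55% of promoters, and a further short form at -191 to -187, outside the run printed. The EGR element, searched as GCGGGGGCG and GCGTGGGCG, lay in the promoters of Fosb and Zfp36, against 3.06% of all promoters. A CArG box lay in that of Zfp36 at -58 to -49, against 1.47% of all. The motif GGAAGT of ETS factors lay in Fos and Junb (19.7% of all), and the TATA box TATAAA in Fos (12.4% of all). The AP-1 element, searched as TGACTCA and TGAGTCA, had no match in the 8 windows, against 4.46% of all promoters. Only exact forms of each motif were searched, so near forms, such as tgacatca in the Jun run printed above, were not counted. Such matches describe letters in these windows and say nothing about binding in these cells.

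The FOS proteins are the partners that JUN proteins need for the most stable AP-1 pairs. Fos had an RMA intensity of 533 for mouse 5, 298 for mouse 4, 342 for mouse 3, 248 for mouse 2 and 326 for mouse 1. Fosb read 266 for mouse 5, 127 for mouse 4, 119 for mouse 3, 113 for mouse 2 and 157 for mouse 1. Both were highest in mouse 5 and lowest in mouse 2, and mouse 1 stood above mouse 2 although their T2 labels differ by 0.06 ms. On the log2 scale Fos averaged 8.40 ± 0.41 and Fosb 7.21 ± 0.51 (SD, n = 5).

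The JUN genes differed in spread. Jun, whose product JNK kinases activate, read 792 for mouse 5, 595 for mouse 4, 465 for mouse 3, 466 for mouse 2 and 443 for mouse 1. Mice 5 and 4 stood above the other 3, which lay close together. Junb, which encodes a partner often opposed to JUN in target choice, read 142 for mice 5, 4 and 3, 132 for mouse 2 and 144 for mouse 1. Jund, the JUN gene that resting cells express, read 668 for mouse 5, 722 for mouse 4, 611 for mouse 3, 594 for mouse 2 and 732 for mouse 1. Neither Junb nor Jund was highest in mouse 5, and their log2 levels, 7.13 ± 0.049 and 9.37 ± 0.14 (SD, n = 5), spread less than that of Jun, 9.07 ± 0.35.

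Atf3, a stress-induced bZIP gene whose product represses many targets as a pair with itself, read 199.5 for mouse 5, 107 for mouse 4, 112 for mouse 3, 88.9 for mouse 2 and 133 for mouse 1, with a log2 mean of 6.94 ± 0.44 (SD, n = 5). Its order of mice was close to that of Fos and Fosb. Among the 5 members of large spread, Fos and Atf3 had the most alike profiles, with a root mean square difference of 0.105 log2 between their mean-centred values over the 5 arrays. Fosb and Atf3 followed at 0.109, and Fosb and Dusp1 were the least alike at 0.306.

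Egr1, which codes for a zinc finger activator of growth and inflammatory genes, had the smallest SD of the 10. It read 79.9 for mouse 5, 75.7 for mice 4, 3 and 2 and 74.4 for mouse 1, a log2 level of 6.25 ± 0.039 (SD, n = 5) just above the filter. Ier2 read 259.8 for mouse 5, 219 for mouse 4, 227 for mouse 3, 218 for mouse 2 and 221 for mouse 1, so that mouse 5 stood apart from 4 mice between 218 and 227. Equal values on 3 or more arrays, as in Junb and Egr1, occurred in 2 of 10 members and in 38.2% of all genes tested.

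Of the feedback genes, Dusp1 varied and Zfp36 varied less. Dusp1 read 1536 for mouse 5, 1060.4 for mouse 4, 1115 for mouse 3, 800.1 for mouse 2 and 840.4 for mouse 1, a log2 level of 10.02 ± 0.38 (SD, n = 5), with mice 5, 4 and 3 above mice 2 and 1. Zfp36 read 506 for mouse 5, 473 for mouse 4, 440.4 for mouse 3, 372 for mouse 2 and 493 for mouse 1, a log2 level of 8.83 ± 0.18 (SD, n = 5). Mouse 2 stood lowest for both genes, while mouse 1 was low for Dusp1 and near the top for Zfp36.

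**Figure D1:**
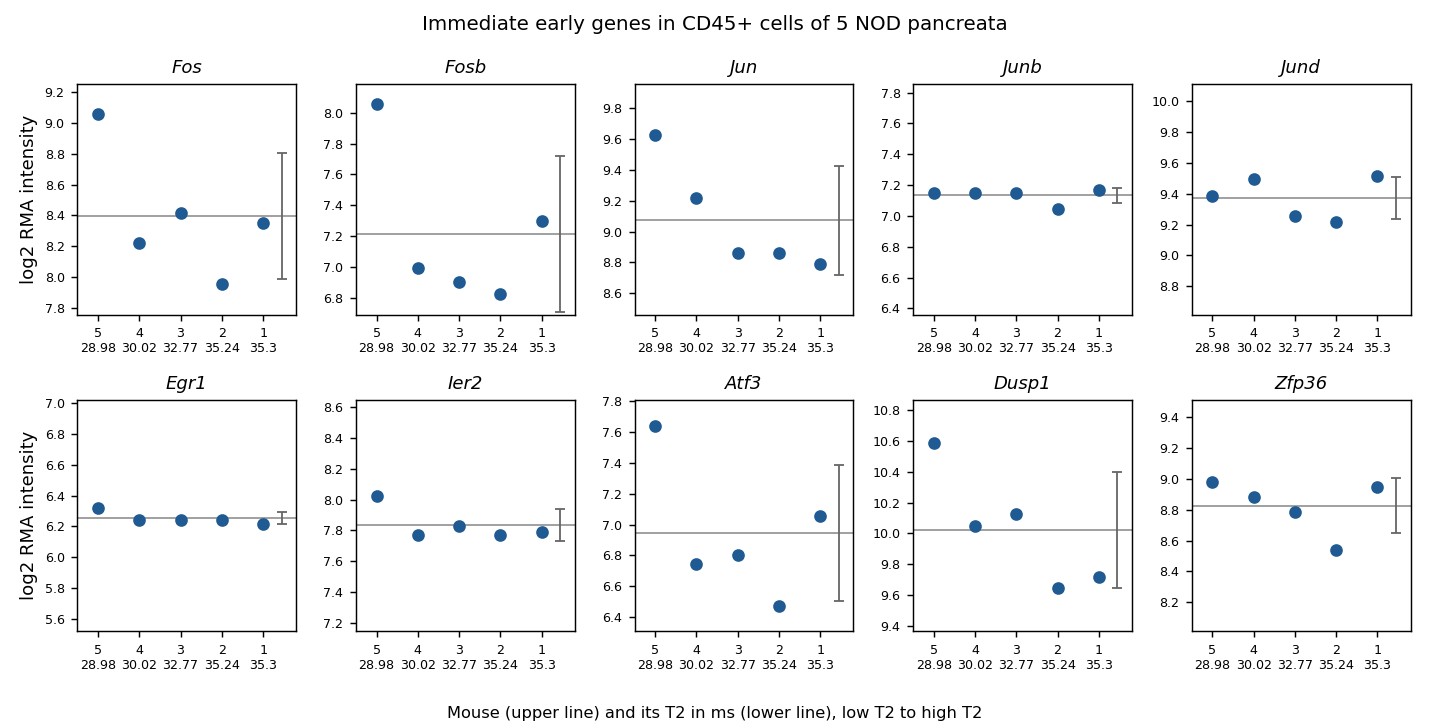
Log2 RMA intensity of the 10 genes (1 panel each, all spanning 1.5 log2 units) in each mouse, in order of T2 from low to high. Points are single arrays, the grey line is the mean and the bar at the right the SD (n = 5); Fos, Fosb, Jun, Atf3 and Dusp1 are highest in mouse 5, while Junb and Egr1 stay nearly flat.

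The arrays thus agreed closely for some members and not for others. The SD over mice was at least 0.3 log2 in 5 of 10 members, against 6.47% of all genes tested, and these were Fos, Fosb, Jun, Atf3 and Dusp1. Their highest mouse exceeded their lowest by 1.79-fold in Jun, 1.92-fold in Dusp1, 2.15-fold in Fos, 2.24-fold in Atf3 and 2.36-fold in Fosb. Each of their SDs lay above that of at least 95.7% of all genes tested. Egr1 and Junb lay at the other end, with an SD above that of 17.1% and 21.7% of genes. Both have equal values on 3 arrays, as do 38.2% of all genes tested on 3 or more, and such ties narrow an SD. Ier2, Jund and Zfp36 lay between, at 50.5%, 63.8% and 77.2%. The median SD of the members was 0.27 log2, against 0.11 log2 over all genes tested.

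**Figure D2:**
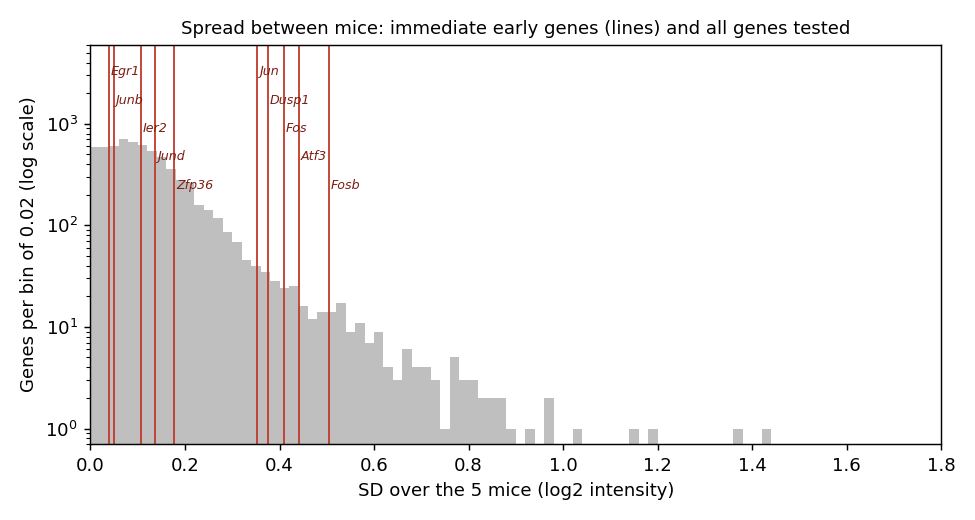
SD of log2 intensity over the 5 mice for the 6603 genes tested (grey histogram, bins of 0.02, log scale) with the 10 immediate early genes as vertical lines. Egr1, Junb, Ier2, Jund and Zfp36 fall in the bulk, and Jun, Dusp1, Fos, Atf3 and Fosb in the upper tail.

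Mice 5 and 2 gave most of the extreme values. Mouse 5 was above each of the other 4 mice in 8 of 10 members, against 34.3% of all genes tested, the exceptions being Junb and Jund. Its excess over the mean of the other 4 was 2.08-fold for Fosb, 1.83-fold for Atf3, 1.77-fold for Fos, 1.63-fold for Dusp1 and 1.62-fold for Jun, and between 1.01-fold and 1.17-fold for the other 5. Mouse 2 was below each of the other mice in 8 of 10 members, against 23.6% of all genes, the exceptions being Jun and Egr1. The mean of the 10 genes was 8.48 for mouse 5, 8.08 for mouse 4, 8.04 for mouse 3, 7.86 for mouse 2 and 8.08 for mouse 1 (log2). With the arrays quantile normalized again, mouse 5 was highest in 6 of 10 members against 20.2% of all genes, and mouse 2 lowest in 6 against 18.2%. The labels give no date, batch or order of handling that could be set against this order of mice.

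Mice 1 and 2 show how far the genes differ at nearly the same T2. Mouse 1 was above mouse 2 in 8 of 10 members, against 45.2% of all genes tested. These are the 8 members that were lowest in mouse 2, so this count follows from that order and is no separate result. Mouse 1 exceeded mouse 2 by at least 0.3 log2 in 5 of 10 members, against 9.51%. The difference was 0.58 log2 for Atf3, 0.48 for Fosb, 0.41 for Zfp36, 0.40 for Fos and 0.30 for Jund. It was 0.12 for Junb, 0.07 for Dusp1 and -0.07 for Jun. For Atf3, Zfp36, Jund and Junb it was larger in size than the whole change fitted over the span of T2, which was -0.55, -0.22, -0.077 and -0.044 log2.

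No member passed the test of its T2 slope. limma's moderated test, adjusted over the 6603 genes, called 0 of 10 members and 0% of all genes at a threshold of 0.05; at an unadjusted p under 0.05 it gave 2 of 10 members lower at higher T2, against 4.59% of all genes, and 0 higher, against 0.697%. The 2 were Jun and Dusp1. Jun had a slope of -0.11 ± 0.029 log2 per ms (SE, n = 5; limma adjusted p = 0.604), a fitted level 1.62-fold higher at 28.98 ms than at 35.3 ms with a 95% interval of 1.18 to 2.23. Dusp1 had -0.12 ± 0.033 (SE, n = 5; limma adjusted p = 0.668), or 1.66-fold with an interval of 1.15 to 2.39. These 2 were also the members in which mice 4 and 5 both lay above mice 1 and 2, a pattern of 15.4% of all genes, so that 2 of 10 is near the background. The count was 9 with mouse 1 left out (39.6% of all genes), 8 with mouse 4 left out (42.7%) and 4 with centred arrays (29.7%), and leaving out a mouse makes 1 side of the comparison a single mouse.

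All 10 slopes were negative, as were 67.9% of all slopes; with the arrays quantile normalized again 8 of 10 were, against 43.9%, with Junb at 0.0056 and Jund at 0.00035. Their median was -0.061 log2 per ms, against -0.0074 over all genes tested, and it was -0.049 against 0.0029 after that normalization. Fos had a slope of -0.095 ± 0.060, Fosb of -0.098 ± 0.082 and Atf3 of -0.087 ± 0.071 (SE, n = 5), each with an interval of the fitted fold that included 1, from 0.793 to 2.90 for Fos. Zfp36 had -0.034 ± 0.029 and Ier2 -0.024 ± 0.016, while Junb, Jund and Egr1 had slopes between -0.012 and -0.0069. Without mouse 5 the median slope was -0.014, that of Fosb turned to 0.018 and that of Atf3 to 0.0037, while Jun kept -0.070 and Dusp1 -0.079. Without mouse 2 the median was -0.039, and Junb and Jund turned to 0.0026 and 0.0057.

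**Figure D3:**
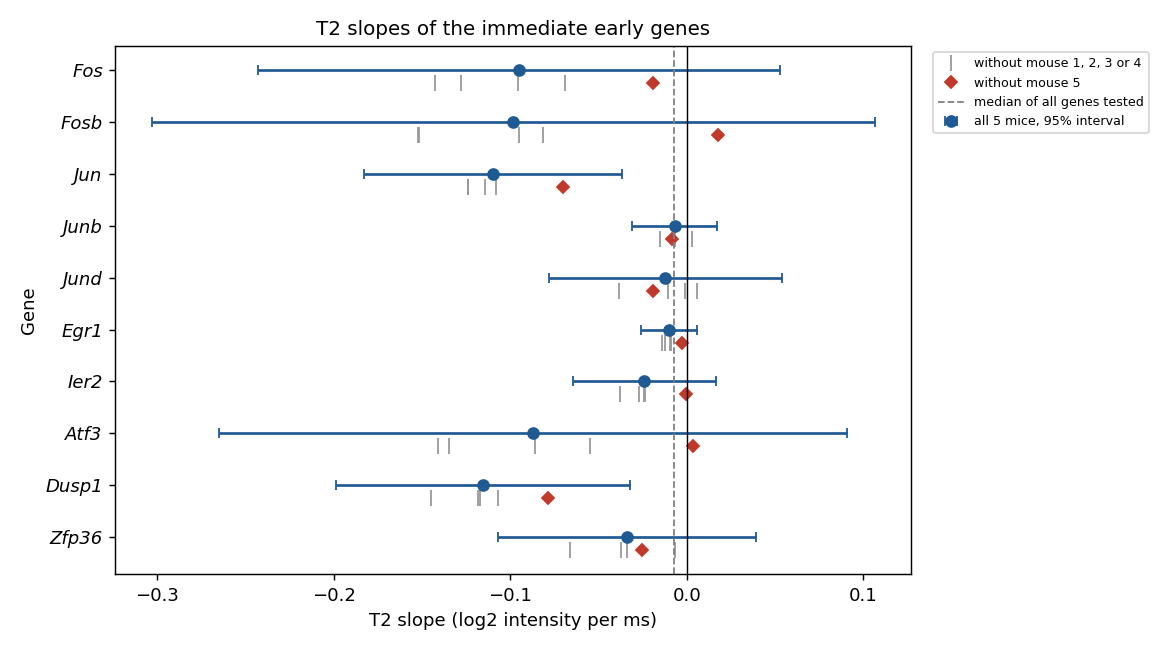
T2 slope of each gene in log2 intensity per ms (blue point, with its 95% interval from limma, n = 5), and below it the slopes with 1 mouse left out. Red diamonds, without mouse 5, lie right of the blue point for Fos, Fosb, Jun, Egr1, Ier2, Atf3, Dusp1 and Zfp36; the dashed line is the median of all genes tested.

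The related bZIP genes past the filter had a median SD of 0.13 log2, against 0.27 among the members. Of 16 other genes of the AP-1 and ATF bZIP families with a probe set, 9 passed the filter. Of these, 5 had a negative and 4 a positive slope, with a median of -0.0070 (0.0050 after quantile normalization). Mouse 5 was highest in 3 of 9, near the 34.3% of all genes tested, and in 1 of 9 after quantile normalization, against 20.2%. Atf7, which binds cyclic AMP response elements, had -0.036 ± 0.014 and Maf, a large MAF factor of macrophages and T helper cells, 0.060 ± 0.029 (SE, n = 5). Fosl1, Batf2, Batf3, Jdp2, Atf5, Maff and Mafk lay under the filter. Of the EGR genes and their NAB corepressors, Egr2 and Egr4 lay under it too. Egr3, an EGR gene of activated T cells, had log2 values of 6.18 for mouse 5, 6.44 for mice 4 and 3, 6.52 for mouse 2 and 6.38 for mouse 1, and was thus lowest where Fos was highest. Its slope was 0.028 ± 0.020, and the corepressor genes Nab1 and Nab2 had the same value on all 5 and on 4 of 5 arrays. No gene of either group passed the adjusted threshold.

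Other immediate early genes were fixed as a list of 30. Of 29 with a probe set 21 passed the filter, 15 had a negative and 6 a positive slope, with a median of -0.034 (-0.021 after quantile normalization), and 0 passed the adjusted threshold in either direction. Mouse 5 was highest in 11 of 21, against 34.3% of all genes tested, and mouse 2 lowest in 10 of 21, against 23.6%. After quantile normalization mouse 5 was highest in 8 of 21, against 20.2%. Bhlhe40, a basic helix-loop-helix repressor, had a slope of -0.054 ± 0.013 and Rhob, a small GTPase of endosomes, -0.054 ± 0.014 (SE, n = 5). Klf6, a zinc finger factor named after its values were seen, read 9.32 for mouse 5, 8.72 for mouse 4, 8.63 for mouse 3, 8.53 for mouse 2 and 8.86 for mouse 1 on the log2 scale, the order seen in Fosb. Nr4a1, an orphan nuclear receptor induced by antigen receptors and also named afterwards, was instead highest in mouse 1, at 9.09 against 8.60 to 8.63 in the other 4.

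The lists around DUSP1 and ZFP36 had median slopes between -0.010 and -0.00078, against -0.0074 over all genes tested, and each median was between 0.0023 and 0.0073 after quantile normalization. Of 15 phosphatases and Sprouty-type inhibitors of MAP kinase signalling 9 passed the filter, 6 with a negative and 3 with a positive slope and a median of -0.0086. Dusp3, a phosphatase of ERK and JNK, had -0.043 ± 0.030 and Dusp22 -0.032 ± 0.022. Upstream kinases and promoter-bound factors had 12 negative and 3 positive slopes in 16 genes past the filter, with a median of -0.010, and the 2 with the largest moderated t were Map2k3, an activator of p38 kinases, at -0.017 ± 0.0063 and Mapk14 (p38 alpha) at -0.035 ± 0.017 (SE, n = 5). Among 8 genes for ZFP36 paralogs and other proteins that act on AU-rich or stem-loop messages the median was -0.0052, with Elavl1, a stabilizer of such messages, at -0.014 ± 0.013 and Zc3h12d at 0.016 ± 0.013. Of 16 AU-rich messages of the kind that ZFP36 binds, 5 passed the filter, with a median slope of -0.00078. Tnf, the best known target in mice, had log2 values of 6.61 for mouse 5, 6.73 for mouse 4, 6.76 for mouse 3, 6.78 for mouse 2 and 7.10 for mouse 1, a slope of 0.047 ± 0.023, and Ccl3, a chemokine gene, had -0.055 ± 0.029. None of these genes passed the adjusted threshold in limma's test.

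Heat shock genes, which dispersal also induces, shared the high values of mouse 5 but not the low values of mouse 2. Of 12 with a probe set 10 passed the filter, and all 10 had a negative slope, against 67.9% of all genes tested. Their median was -0.065 (-0.060 after quantile normalization), and 0 passed the adjusted threshold. All 10 were highest in mouse 5, against 34.3% of all genes, and 9 were after quantile normalization, against 20.2%. Mouse 2 was lowest in 0 of 10, and mouse 1 was above mouse 2 in 1 of 10, where it was so in 8 of 10 members. Hspa1a, an inducible HSP70, had log2 values of 9.44 for mouse 5, 8.90 for mouse 4, 8.19 for mouse 3, 7.23 for mouse 2 and 6.68 for mouse 1. Dnajb1, its co-chaperone, read 8.69 for mouse 5, 8.45 for mouse 4, 7.99 for mice 3 and 2 and 7.42 for mouse 1. Both were lowest in mouse 1, as were Jun and Egr1 among the members, with Jun at 8.79 for mouse 1 and 8.86 for mouse 2. Fos, Fosb and Atf3 stood higher in mouse 1 than in mouse 2, while Dusp1 was higher there by only 0.07 log2.

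Markers of cell types moved between these mice as well. In such bulk samples fewer cells of a type and less RNA per cell cannot be told apart. Ptprc, the gene of CD45, had a log2 level of 11.06 ± 0.10 (SD, n = 5). Macrophage markers past the filter, 12 of 16 with a probe set, averaged 9.10 for mouse 5, 9.09 for mouse 4, 8.60 for mouse 3, 8.01 for mouse 2 and 7.90 for mouse 1, and the 2 with the largest moderated t were Apoe at -0.24 ± 0.022 and C1qa at -0.25 ± 0.032 log2 per ms (SE, n = 5). The macrophage mean was level in mice 5 and 4, while the neutrophil mean was not. Single macrophage markers differed between these mice in both directions. Apoe read 10.73 for mouse 5 and 10.22 for mouse 4, and C1qc 8.47 and 8.83. Between these 2 mice Fosb differed by 1.07 log2, Atf3 by 0.90, Fos by 0.84, Dusp1 by 0.53 and Jun by 0.41. Neutrophil markers, 6 of 13 past the filter, averaged 8.004 for mouse 5, 6.85 for mouse 4, 8.76 for mouse 3, 7.11 for mouse 2 and 7.51 for mouse 1, highest in mouse 3 and higher in mouse 5 than in mouse 4. B cell markers, 13 of 14, averaged 8.67 for mouse 5, 8.65 for mouse 4, 8.08 for mouse 3, 8.09 for mouse 2 and 8.96 for mouse 1. Mouse 1 was above mouse 2 in 13 of 13 of these, in 6 of 6 neutrophil and in 6 of 6 acinar markers, against 45.2% of all genes tested. It was so in 6 of 12 macrophage and 1 of 7 dendritic cell markers. In T cell, NK and mast cell markers it was so in 0 of 15, 0 of 5 and 0 of 5. T cell markers, 15 of 15, were highest in mouse 2 at 8.89 and lowest in mouse 1 at 8.13.

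Markers of mast cells, 5 of 9 past the filter, averaged 7.03 for mouse 5, 6.86 for mouse 4, 6.90 for mouse 3, 6.31 for mouse 2 and 5.79 for mouse 1. Those of acinar cells, 6 of 11, averaged 6.96 for mouse 5, 6.85 for mouse 4, 6.83 for mouse 3, 6.54 for mouse 2 and 7.26 for mouse 1. Mouse 2 was lowest in 5 of these 6, against 23.6% of all genes tested. Dendritic cell markers, 7 of 10, lay between 6.79 and 7.15 over the mice, and NK markers, 5 of 10, between 6.41 and 7.14. No marker of islet, duct or erythroid cells and platelets passed the filter, and of fibroblast and endothelial markers 1 each did, Thy1 and Pecam1, which leukocytes express too. The part that changes in cell content have in the values of the immediate early genes was not tested.

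**Figure D4:**
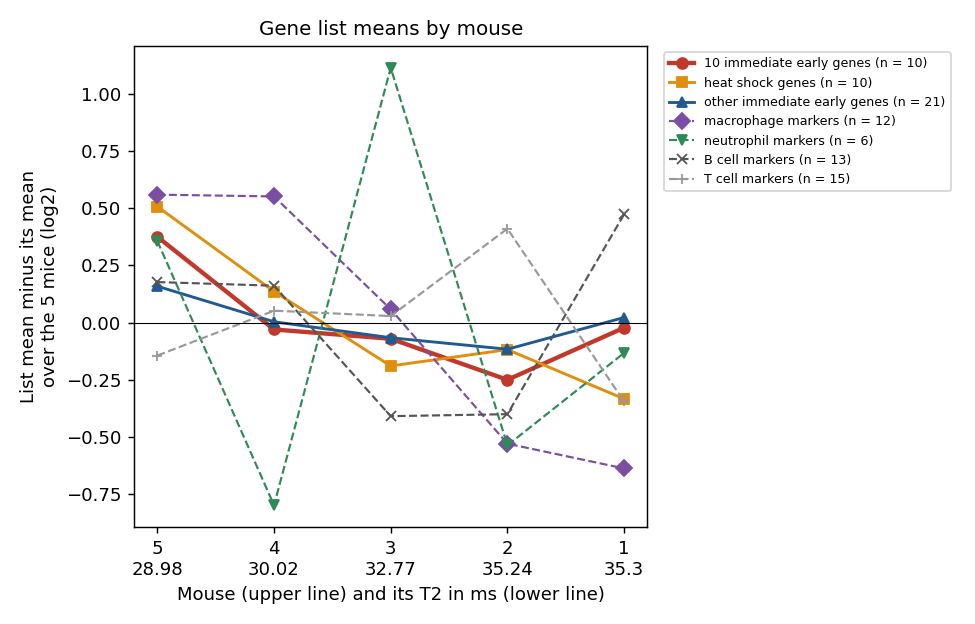
Mean log2 intensity of gene lists in each mouse, as the difference from the list's own mean over the 5 mice, in order of T2 from low to high (genes past the filter, n in the legend). By list mean, the 10 immediate early genes are highest in mouse 5 and lowest in mouse 2, and heat shock genes are lowest in mouse 1. The macrophage mean is level in mice 5 and 4, and the neutrophil mean peaks in mouse 3.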

How the data were processed

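Total RNA of the sorted cells, 1 array for each of 5 mice, was labelled with biotin, per the labels' protocols. The submitters' processing notes name RMA and Affymetrix Power Tools, and the values the authors deposited are linear intensities, 1 for each probe set and array, with column medians of 23.8 to 24.5. Not given in the sources used here: tool versions, genome build and array dates. RMA is meant to make the arrays' distributions alike, so a level is relative to its array. The deposited values were not fully alike over the genes tested. Quantile normalization moved the share of genes highest in mouse 5 from 34.3% to 20.2%, and that of negative slopes from 67.9% to 43.9%. Log2 was taken of each intensity, and GEO's platform annotation named the genes: 21789 of 35556 probe sets have 1 symbol, 1621 have several and 12146 are unnamed here. A line on T2 was fitted for each gene with limma 3.58.1 (lmFit, eBayes; R 4.3.3), with 3 residual degrees of freedom, two-sided and Benjamini-Hochberg adjusted over 6603 genes, and was tested on simulated data. Errors of slopes are ordinary standard errors, and intervals of folds are moderated. The p-values test each slope against the residual spread between these 5 mice, which limma moderates with the spread of all genes tested. The number of mice limits the precision.

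The members and lists were chosen with earlier results of these data known, so no list was tested as a whole. Named were the members, the 2 genes of each list with the largest moderated t, Ptprc, Hspa1a (Hspa1b has no probe set of its own here) and the 5 genes nearest to the members' mean profile. Alternatives were filters of 5, 7 or none, quantile normalization, centring, averaged probe sets, ranks of T2, trended robust variances, array weights, removal of tied genes and leaving out each mouse. Promoter motifs were searched with Python 3.11.15.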

Additional observations from a re-analysis of the deposited data

Results flagged for a closer look

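For 10 members and 18 list means, the distance of the most extreme mouse from the next one was divided by the range over the 5 mice. This gap share passed Dixon's limit of 0.71 in 3 members and 0 list means. By chance about 1 in 20 groups of independent values would pass, but 31.6% of all genes tested did, so 3 of 10 members is near the background. The share was 58.1% among genes with equal values on 3 or more arrays and 15.3% among the others. Junb was lowest in mouse 2, at a log2 of 7.05 against 7.15 to 7.17 in the other 4 (gap share 0.851). Ier2 was highest in mouse 5, at 8.02 against 7.77 to 7.83 (0.775), and Egr1 was highest there too, at 6.32 against 6.22 to 6.24 (0.7575). Junb and Egr1 have equal values on 3 arrays.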

How the results depend on the processing

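The count of genes with a T2 slope past the adjusted threshold was 0 with all 5 mice and without each mouse in turn (lowest 0, highest 0). It was 3 with a filter of 7, 4 with quantile normalization of the deposited values, 4 with array weights and 35 without genes of equal values on 3 or more arrays; no member was among them under any alternative (lowest adjusted p = 0.176 in limma, for Jun). The median slope of the members, -0.061, lay between -0.090 and -0.014 with 1 mouse left out, and was -0.091 without genes of equal values, where Junb and Egr1 drop out by construction. The count of members with mice 4 and 5 both above mice 1 and 2, 2 of 10, was 4 with centred arrays and between 2 and 9 with 1 mouse left out (9 without mouse 1, 8 without mouse 4), where 1 side of the comparison is a single mouse; the share of all genes was 15.4% in the main setting, 29.7% with centred arrays, 39.6% without mouse 1 and 42.7% without mouse 4. In 146 pairs of member and setting the slope changed sign in 6. The filters, averaged probe sets, trended robust variances and removal of tied genes leave the slope of each member they keep unchanged. Pairs with those settings could not change sign, so the 6 come from the other settings alone and 146 is too large a base for them. Junb turned to 0.0056 and Jund to 0.00035 with quantile normalization, Junb lay between -0.015 and 0.0026, Jund between -0.038 and 0.0057, Fosb between -0.15 and 0.018 and Atf3 between -0.14 and 0.0037 with 1 mouse left out; the cause was not tested. Chosen after seeing the data were the counts of members highest in mouse 5 and lowest in mouse 2 under both scalings, 6 each with quantile normalization and 8 each with centred arrays. No paired analysis was possible because the mice form 1 group. With 5 arrays, the 95% interval for Fosb allows folds from 0.627 to 3.78.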

Other observations

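The 5 genes whose values over the 5 arrays lay nearest to the mean profile of the members, among 850 genes of at least that profile's SD, were 2610001J05Rik, Lyst, Lacc1, Nucb2 and Cpeb4. Their root mean square differences from it were 0.021, 0.032, 0.033, 0.052 and 0.059 log2. Lyst regulates the size of lysosomes, Lacc1 encodes an enzyme of macrophage metabolism, Nucb2 a calcium-binding protein and Cpeb4 a binder of messenger RNA tails. All 5 were highest in mouse 5 and lowest in mouse 2, which follows from the choice, since the profile they were matched to has that order. Of these genes, 2610001J05Rik, Lacc1 and Cpeb4 had equal values on 3 arrays.

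Genes of NF-kB feedback, another circuit with rapid induction, had 4 negative and 4 positive slopes in 8 genes past the filter, with a median of -0.00037 (0.012 after quantile normalization, with 3 negative). Nfkbia, the inhibitor that NF-kB induces to limit itself, had -0.022 ± 0.012 log2 per ms, and Tnip1, a partner of the A20 enzyme, 0.018 ± 0.0052 (SE, n = 5). Mouse 1 was above mouse 2 in all 8 of them, against 45.2% of all genes tested. Mouse 5 was highest in 4, against 34.3%, and in 0 after quantile normalization, against 20.2%. Of these genes 0 passed the adjusted threshold in limma's test.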
